A study of Mus musculus with 8 samples.

Results

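The genes described here code for adhesion molecules, Eph receptors, ephrins, a growth factor receptor and a semaphorin of the lens, and each was looked up by position in lists of chromatin loops, topologically associating domains (TADs) and CTCF binding sites. They are 10 of the 20311 protein-coding genes of at least 1 kb in the gene table: Cdh1, Cdh2, Itgb1, Itga6, Epha2, Ephb2, Efna1, Efna5, Pdgfra and Sema4d. A loop was assigned to a gene when an anchor overlapped the gene body widened by 5 kb, a TAD when it touched that window, and a CTCF peak when it lay in it. Of the 10 genes, 8 are adhesion, Eph or ephrin genes, while Pdgfra codes for a growth factor receptor and Sema4d for a semaphorin.

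Hi-C was performed on v6.5 mouse embryonic stem (ES) cells of WT genotype, an established line, and on 2 tissues of CD-1 mouse lenses at postnatal day 0.5, the lens epithelium and the lens fiber mass, separated by microdissection. Each cell type had 2 Hi-C replicates, of 30 pooled lenses for each lens sample and 2000000 cells for each ES cell sample, and all were crosslinked with 2.0% formaldehyde. CTCF ChIP-seq was performed on lens epithelium and lens fiber cells, from 200 lenses, and is represented by 1 peak list per cell type. Both lens samples came from the same strain and age, and no group carried a deletion or a treatment. The ES cell line is male and of a mixed strain other than CD-1. Strain and cell type therefore cannot be told apart between ES cells and the lens. Because the authors merged the replicates before calling loops and TADs, a list has no replicate error, and no difference between cell types could be tested. Lens epithelium and lens fiber cells are hereafter the epithelium and fibers. Expression was not analysed here, so the cell types could not be checked against their marker genes.

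Loops numbered 8459 for ES cells, 8005 for the epithelium and 7682 for fibers, with medians of 56, 51 and 63 observed contacts per loop. TADs numbered 3604, 1796 and 2641 in the same order, and CTCF peaks 16433 in the epithelium and 23868 in fibers. The total depth is not given in the lists. Intervals given for a ratio of observed to expected contacts are exact Poisson 95% intervals of the observed count, and they cover counting error only.

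A chromatin loop in Hi-C is a pair of anchor segments that touch more often than their surroundings do, and many such pairs are held by cohesin stopped at CTCF, a zinc finger protein bound at both ends. TADs are stretches of chromosome whose parts contact each other more than they contact neighboring DNA. In the lens, a sheet of cuboidal epithelial cells covers the front, and cells leaving its equator elongate into tightly packed fiber cells. Classical cadherins join lens cells to each other, integrins join them to the laminin-rich capsule, and Eph receptors and their membrane-bound ephrin ligands signal between neighboring cells. Eph signaling is needed for regular packing of lens cells, and inherited changes of human EPHA2 cause cataract.

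Over the 10 genes there were 12 loops in ES cells, 18 in the epithelium and 14 in fibers, or 44 in all, and 20 of the 44 belonged to Pdgfra. At least 1 loop was found at 4 genes in ES cells, 8 in the epithelium and 6 in fibers. Of all 20311 genes, 39.1% had a loop anchor in ES cells, 38% in the epithelium and 36.3% in fibers. Cdh2, Itgb1, Efna1 and Efna5 had a loop in the epithelium and none in the ES cell list. Epha2 and Sema4d had no loop anchor in any list.

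Long genes can hold more anchors than short ones. Cdh2, Ephb2, Efna5 and Sema4d span at least 100 kb, and of these 4 genes 1 had a loop in ES cells, 3 in the epithelium and 2 in fibers. Of all 2429 genes of that length, 67.2%, 76.2% and 74.9% had a loop anchor in the respective lists.

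**Figure D1:**
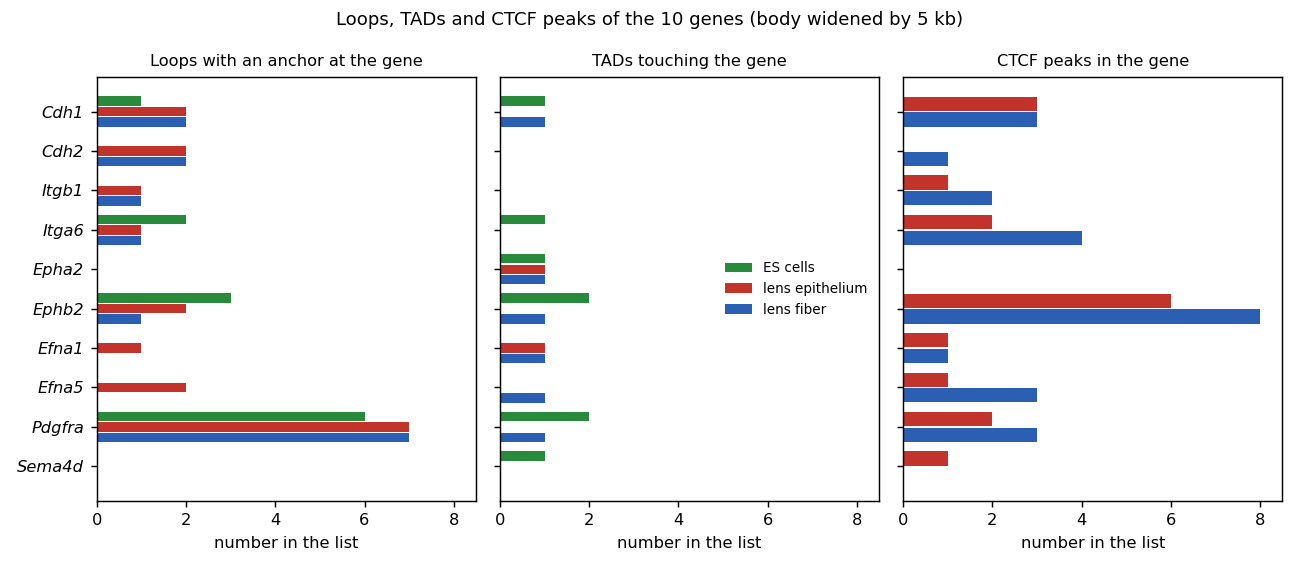
Number of loops (left), TADs (middle) and CTCF peaks (right) at each of the 10 genes, with a bar per list; CTCF was measured in lens cells only. Pdgfra has the longest loop bars, of 6 to 7, Ephb2 the longest peak bars, of 6 and 8, and Epha2 a TAD in every list with no loop and no peak.

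The 44 loops fell into 27 positions once those with both anchor midpoints within 10 kb of each other were joined. Of these positions, 6 were present in all 3 lists, 4 in both lens lists, 1 in ES cells and the epithelium, 5 in ES cells alone, 7 in the epithelium alone and 4 in fibers alone. The positions held by all lists were 1 each at Cdh1, Itga6 and Ephb2 and 3 at Pdgfra, and those of both lens lists were 1 each at Cdh2 and Itgb1 and 2 at Pdgfra. Only loops with an anchor in a gene window were joined. At 1 of these Pdgfra positions, an ES cell loop of 640 kb outside the window matched the fiber loop.

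In each list 1 loop joined the listed start of a member to the start of another gene, and promoter sequences are shown for the shorter 2, those of ES cells and the epithelium. Among 7 members with listed starts, 1 had a start inside a loop anchor in ES cells, 2 in the epithelium and 1 in fibers, against 12.4%, 14% and 13% of all 17492 genes with listed starts. The start of Pdgfra was inside an anchor in every list, and that of Efna1 in the epithelium. At the other anchor of such loops lay the start of Gsx2, a homeobox transcription factor gene, for Pdgfra in ES cells, and that of Krtcap2, which codes for a subunit of the oligosaccharyltransferase complex, for Efna1 in the epithelium, together with that of Trim46. In fibers the start of Usp46 lay at the other anchor of a Pdgfra loop of 1100 kb. Each RefSeq window (GRCm38.p6) runs 5′ to 3′ from 250 bases before to 50 after the start, and capitals mark matches to CCNNNAGNNGGC, a short form of the core of the CTCF motif, or to its reverse complement GCCNNCTNNNGG. These letters were chosen after the sequences were seen. The windows of Pdgfra (chr5:75152001-75152300, plus strand), Gsx2 (chr5:75075351-75075650, plus strand), Efna1 (chr3:89280902-89281201, minus strand) and Krtcap2 (chr3:89246188-89246487, plus strand) are as follows.
Pdgfra: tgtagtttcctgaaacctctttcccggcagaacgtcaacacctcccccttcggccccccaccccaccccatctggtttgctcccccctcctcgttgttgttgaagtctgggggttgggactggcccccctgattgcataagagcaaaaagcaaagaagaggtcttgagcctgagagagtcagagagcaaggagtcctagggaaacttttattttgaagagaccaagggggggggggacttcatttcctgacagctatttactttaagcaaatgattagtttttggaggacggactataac
Gsx2: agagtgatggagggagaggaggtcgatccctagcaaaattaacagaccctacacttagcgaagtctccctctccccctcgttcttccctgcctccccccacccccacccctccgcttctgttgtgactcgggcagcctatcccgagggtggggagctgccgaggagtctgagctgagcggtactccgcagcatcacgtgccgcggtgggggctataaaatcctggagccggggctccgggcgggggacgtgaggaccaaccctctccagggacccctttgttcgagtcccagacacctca
Efna1: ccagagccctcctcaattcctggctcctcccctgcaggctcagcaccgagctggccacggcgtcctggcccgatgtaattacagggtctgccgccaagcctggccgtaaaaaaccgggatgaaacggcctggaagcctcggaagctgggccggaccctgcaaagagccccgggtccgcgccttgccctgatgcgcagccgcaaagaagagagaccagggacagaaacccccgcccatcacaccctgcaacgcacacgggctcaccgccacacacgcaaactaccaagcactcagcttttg
Krtcap2: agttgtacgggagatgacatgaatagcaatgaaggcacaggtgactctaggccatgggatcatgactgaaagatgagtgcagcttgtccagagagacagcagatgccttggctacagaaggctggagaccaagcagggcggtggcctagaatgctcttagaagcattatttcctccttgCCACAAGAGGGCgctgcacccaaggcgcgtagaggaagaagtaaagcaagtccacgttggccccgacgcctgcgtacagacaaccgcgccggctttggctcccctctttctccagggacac

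The window of Krtcap2 held 1 match and the other 3 windows held 0. Over all 32851 promoter windows of the same length, 8.61% held a match, and 0 of the 10 windows of the 7 members did. The Krtcap2 match lies at chr3:89246367-89246378 and inside a CTCF peak of both lists. Its centre was 18 bp from the summit in the epithelium, where the fold enrichment was 6.33, and 12 bp from the summit in fibers, where it was 5.45. Neither peak list had a peak in the windows of Pdgfra, Gsx2 or Efna1.

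Cdh1 codes for E-cadherin, the classical cadherin of the lens epithelium. Its gene body of 66.9 kb lies on chromosome 8 from 106603350 to 106670247, and it had 1 loop in ES cells, 2 in the epithelium and 2 in fibers. A loop of 80 to 85 kb in all lists joined the inside of Cdh1 to the flank of Cdh3, the neighboring gene for P-cadherin. Its lower anchor began at 106560001, within 5 kb of the Cdh3 body but above its end at 106556911. The loop rested on 92 contacts in ES cells, against 22.7 expected, for a ratio of 4.05 (95% interval 3.27 to 4.97). In the epithelium 76 contacts gave a ratio of 3.38 (2.66 to 4.23), and in fibers 35 contacts gave 4.10 (2.86 to 5.70). The intervals overlap, but the anchors were 10 kb wide in the epithelium and 5 kb in the other lists, so that the ratios are not on the same footing.

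The second Cdh1 loop of each lens list ended in or near Zfp90, a zinc finger gene, but at different places. In the epithelium it spanned 230 kb, with 38 contacts and a ratio of 2.96 (2.10 to 4.07). In fibers it spanned 200 kb between 25 kb anchors, with 201 contacts and a ratio of 3.11 (2.70 to 3.57). Those loops were not joined at 10 kb, although they were at 25 kb, and their anchors differ in width.

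A CTCF peak inside Cdh1, with its epithelium summit at 106647595, lay in the Cdh1 anchor of all 5 loops, in the peak list of either lens cell type. Its fold enrichment was 5.88 in the epithelium and 8.43 in fibers. All 3 loops to the Cdh3 flank had a peak at both anchors in both peak lists. Cdh1 had 3 peaks in each list, and the other 2 peaks of either list overlapped none of the other list. Among these, a fiber peak ended at 106657839, just below an epithelium peak that began at 106657895. An ES cell TAD of 100 kb held 77.2% of Cdh1 and a fiber TAD of 75 kb held 54.8%. Each had ends within 10 kb of the anchors of the loop to the Cdh3 flank. No TAD of the epithelium list touched Cdh1.

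Cdh2 codes for N-cadherin, the classical cadherin of fiber cell membranes. It spans 220 kb of chromosome 18, from 16588877 to 16809246, and had 2 loops in each lens list and 0 in ES cells. A 175 kb loop joined the inside of the gene to its higher-coordinate end, with the same 25 kb anchors in both lens lists. It had 173 contacts in the epithelium, a ratio of 2.59 (2.21 to 3.0), and 231 in fibers, a ratio of 2.56 (2.24 to 2.91). The ratios of this loop differ by less than their counting intervals.

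A longer loop left the same end of Cdh2 and reached a segment without a protein-coding gene below it. It spanned 600 kb in the epithelium, with 96 contacts and a ratio of 3.56 (2.88 to 4.35). In fibers it spanned 590 kb, with 37 contacts and a ratio of 4.2 (2.96 to 5.80). The fiber anchor lay 0.754 kb outside the gene body, and the lower midpoints missed the 10 kb limit for a shared loop, although the loops were joined at 25 kb.

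ES cells had a loop of 250 kb that enclosed the whole of Cdh2, with 43 contacts and a ratio of 2.48, and its nearest anchor lay 8.88 kb from the gene body, outside the 5 kb window. The epithelium list had 0 peaks in the window and the fiber list had 1, at 16660929, with a fold enrichment of 4.39, and it lay in no loop anchor. A further fiber peak, 12.9 kb above the gene and so outside the window, with a fold enrichment of 4.97, was in the upper anchor of the 175 kb loop of both lens lists and of the 600 kb epithelium loop. The lower anchor of the 600 kb loop held a peak of both lists, while the 590 kb fiber loop held none at either anchor. No TAD of any list touched Cdh2.

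Itgb1 codes for integrin β1, the chain shared by laminin and collagen receptors. It spans 47.9 kb of chromosome 8, from 128685654 to 128733579, and had 1 loop in each lens list and 0 in ES cells, where the nearest anchor was 311 kb away. The loop ran from below the listed start into the gene. In the epithelium it spanned 50 kb, with 66 contacts and a ratio of 3.05 (2.36 to 3.88), and in fibers 60 kb, with 73 contacts and a ratio of 2.38 (1.87 to 3.0). The intervals overlap.

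The lens lists shared no CTCF peak at Itgb1. The epithelium had 1 peak, 23.7 kb inside the gene and within the loop anchor, with a fold enrichment of 4.58. Fibers had 2, at 0.644 and 39.4 kb from the listed start, with fold enrichments of 5.90 and 6.59. The fiber peak at 0.644 kb was the nearest to a listed start among the peaks of the 7 members with listed starts. Cdh1, Cdh2 and Itga6 have no listed start. No TAD touched Itgb1.

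Itga6 codes for integrin α6, which pairs with β1 or β4 to bind laminin. Its 71.5 kb lie on chromosome 2 from 71786886 to 71858427, with 2 loops in ES cells, 1 in the epithelium and 1 in fibers. A loop of 205 to 210 kb to a segment without a protein-coding gene was present in all lists. Its contacts numbered 57 in ES cells, 31 in the epithelium and 28 in fibers, and the ratios were 4.69 (3.55 to 6.08), 4.26 (2.90 to 6.05) and 3.22 (2.14 to 4.65). All 3 intervals overlap.

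The ES cell anchor of this loop held a CTCF peak that both lens lists shared, with fold enrichments of 5.56 in the epithelium and 7.17 in fibers. The anchors in the lens lists lay on the adjoining 5 kb segment, which held none. A second ES cell loop of 400 kb, with 111 contacts and a ratio of 2.11 (1.73 to 2.54), reached Hat1 and Metap1d and was in neither lens list. Itga6 had 2 peaks in the epithelium, both shared, and 4 in fibers. An ES cell TAD of 240 kb held 53.3% of the gene, and no TAD of the lens lists touched it.

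Epha2 codes for the Eph receptor linked to inherited cataract. It spans 28.2 kb of chromosome 4, from 141301221 to 141329384, and had no loop anchor and no CTCF peak in its window in any list. The whole gene lay in a TAD of 100 kb in ES cells, 90 kb in the epithelium and 95 kb in fibers. No other member had a TAD in all 3 lists.

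The same loop of 90 kb enclosed Epha2 in all 3 lists, with identical anchors of 5 kb and Fam131c at the higher one. It had 80 contacts in ES cells, 38 in the epithelium and 56 in fibers, with ratios of 3.65, 5.28 and 5.35. Nearest anchors of any loop lay 11.2, 26.2 and 20.6 kb from the gene body. In fibers the nearest CTCF peaks were 27.6 kb below and 31.6 kb above the gene and fell into those anchors. In the epithelium the lower peak, at 32.6 kb, lay just outside its anchor and the upper one, at 33.8 kb, inside.

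Ephb2 codes for a receptor of B-class ephrins. It spans 189 kb of chromosome 4, from 136647536 to 136836326, and had 3 loops in ES cells, 2 in the epithelium and 1 in fibers. A loop of 160 to 165 kb, with both anchors in the widened gene, was common to all lists. The ES cell loop had 87 contacts and a ratio of 3.45 (2.76 to 4.26), the epithelium loop 89 and 2.93 (2.35 to 3.60), and the fiber loop 45 and 3.46 (2.52 to 4.63). These intervals overlap, again with anchors of 10 kb in the epithelium and 5 kb in the other lists.

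Longer loops of Ephb2 differed by list. In ES cells a loop of 400 kb reached the 5 kb flank of Zbtb40, a zinc finger gene, but not its body, with 157 contacts and a ratio of 2.59 (2.20 to 3.03). In the epithelium a loop of 625 kb from the same anchor reached the start of Wnt4, which codes for a secreted signaling ligand, with 52 contacts and a ratio of 2.89 (2.16 to 3.80). Neither was in another list. ES cells had a further loop of 100 kb within the gene, with a ratio of 2.08 (1.74 to 2.47).

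Ephb2 had the most CTCF peaks of the members, with 6 in the epithelium and 8 in fibers. All 6 of the epithelium overlapped a fiber peak, and they lay within 50 kb of the end of the gene opposite its listed start. The peak at 136678424 had a fold enrichment of 12.1 in the epithelium, above 99.1% of that list, and the matching fiber peak had 12.8, above 97.5%. It lay in the lower anchor of the common loop in ES cells and fibers. The 2 peaks in the fiber list alone were 20.5 and 5.27 kb from the listed start, with fold enrichments of 8.72 and 7.87, and the latter lay in the upper anchor of the common loop. Ephb2 was touched by 2 TADs in ES cells, 0 in the epithelium and 1 in fibers.

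Efna1 codes for ephrin-A1, a ligand of Epha2. It is the shortest member, with 9.22 kb on chromosome 3 from 89271730 to 89280951. Its 1 loop was in the epithelium and joined the start of Efna1 over 35 kb to Krtcap2 and Trim46, whose starts are both in the other anchor. It had 28 contacts against 9.61 expected, a ratio of 2.91 (1.94 to 4.21). This count is among the smallest of the 44 loops, which ranged from 17 to 231 contacts.

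Larger loops from the same Krtcap2 and Trim46 segment enclosed Efna1 in both lens lists. That of the epithelium spanned 60 kb, with 49 contacts and a ratio of 2.43. Its upper anchor ended at 89310000 and reached only the 5 kb flank of Efna3, the gene for ephrin-A3, whose body starts at 89313899. The fiber loop spanned 50 kb, with 77 contacts and a ratio of 2.30, and its nearest anchor lay 9.05 kb from Efna1. This fiber loop was not joined with the 35 kb epithelium loop at 10 kb, but was at 25 kb. No ES cell loop of up to 1000 kb enclosed Efna1, and the nearest ES cell anchor was 59 kb away. A CTCF peak lay 1.17 kb from the listed start in the epithelium and 1.16 kb in fibers, with fold enrichments of 6.32 and 8.62. With the Krtcap2 peak, the epithelium loop had CTCF at both anchors in either peak list. Efna1 was wholly inside a TAD of 70 kb in the epithelium and 75 kb in fibers.

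Efna5 codes for ephrin-A5, whose loss in mice gives cataract. It is the longest member, with 278 kb on chromosome 17 from 62602957 to 62881317, and had 2 loops in the epithelium and 0 in the other lists. Both epithelium loops were inside the gene. The loop of 170 kb had 31 contacts and a ratio of 2.66 (1.81 to 3.78), and the loop of 80 kb had 46 contacts and a ratio of 2.50 (1.83 to 3.33). Away from the epithelium the gene was far from any anchor, at 439 kb in ES cells and 669 kb in fibers.

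The strongest CTCF peak of the members in the fiber list lay inside Efna5, near 62784124 of chromosome 17. Its fold enrichment was 13.8 in fibers, above 98.7% of that list, and 9.29 in the epithelium, above 94.1%. In the epithelium list the Ephb2 peak with a fold enrichment of 12.1 was stronger. The Efna5 peak fell into an anchor of the 170 kb epithelium loop, although the fiber list has no loop there. Fibers had 2 further peaks of their own, the stronger of them 2.99 kb from the listed start with a fold enrichment of 10.4. A fiber TAD of 95 kb held 34.1% of the gene.

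**Figure D2:**
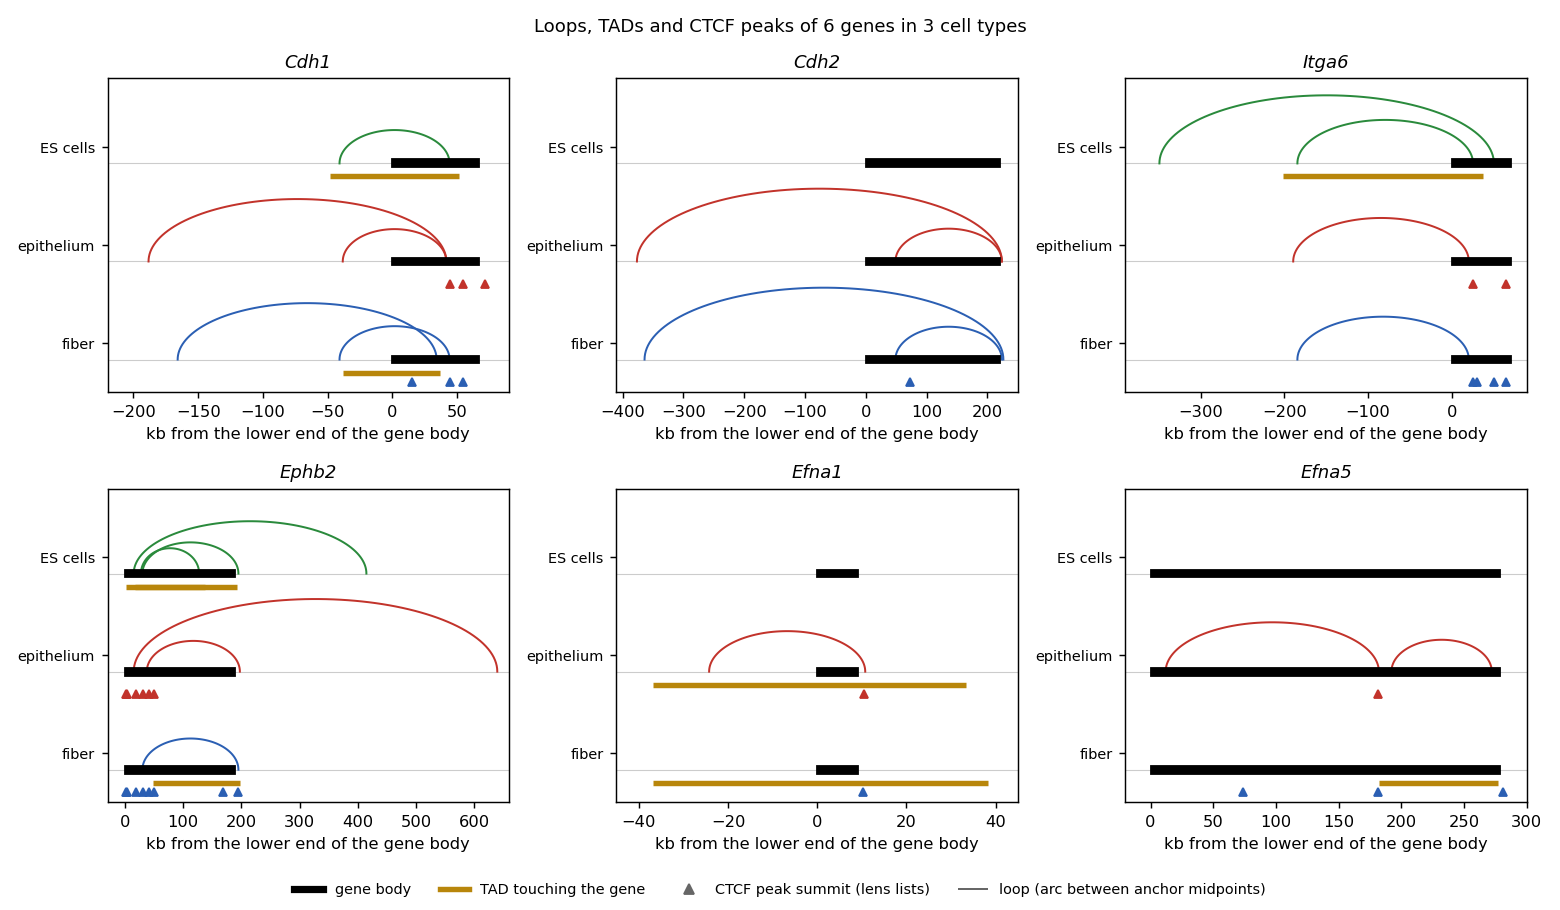
Loops (arcs between anchor midpoints), TADs (bars) and CTCF summits (triangles, lens lists) at 6 genes, plotted as kb from the lower end of each gene body, with ES cells, the epithelium and fibers from top to bottom. The 80 to 85 kb arc of Cdh1, the 205 to 210 kb arc of Itga6 and the 160 to 165 kb arc of Ephb2 recur in all 3 rows. The 175 kb arc of Cdh2 recurs in both lens rows, whose longer Cdh2 arcs, of 600 and 590 kb, missed the 10 kb limit for a shared loop. Arcs of Efna1 and Efna5 are in the epithelium row. Loops without an anchor within 5 kb of the gene are not drawn, among them the 50 kb fiber loop that encloses Efna1.

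Pdgfra codes for the receptor of PDGF-A, a growth factor that acts on lens epithelial cells. It spans 46.9 kb of chromosome 5, from 75151322 to 75198206, and had 6 loops in ES cells, 7 in the epithelium and 7 in fibers. Its listed start at 75152251 was inside an anchor of 5, 5 and 4 of these loops. All such loops ran toward lower coordinates, away from the gene body.

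Scfd2, a gene of vesicle transport, was at the other end of 2 Pdgfra loops in every list. The loop of 835 to 850 kb had 105 contacts in ES cells, a ratio of 3.07 (2.51 to 3.71). In the epithelium it had 17 contacts and a ratio of 5.66 (3.30 to 9.06), and in fibers 21 contacts and a ratio of 7.14 (4.42 to 10.9). ES cells were listed at 25 kb anchors and the lens cells at 5 kb, so that these ratios are not on the same footing. The loop of 720 to 725 kb had ratios of 2.69 (2.25 to 3.20) in ES cells, again at 25 kb, and 3.89 (2.63 to 5.56) and 4.32 (3.16 to 5.77) in the epithelium and fibers at 10 kb.

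The third position common to all lists was a loop of 205 kb with 5 kb anchors throughout. Its contacts numbered 32 in ES cells, 26 in the epithelium and 28 in fibers, with ratios of 3.62 (2.47 to 5.10), 5.08 (3.32 to 7.44) and 4.43 (2.95 to 6.41). The intervals overlap. The fiber anchor was the 5 kb segment just below that of the other lists and did not hold the start.

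The starts of Pdgfra and Gsx2, whose sequences are given above, were joined by a 75 kb loop in ES cells. It had 109 contacts against 11.1 expected, and its ratio of 9.83 (8.07 to 11.9) was the highest of the 44 loops and above 96.4% of all ES cell loops. Its anchors are 5 kb wide, while both rankings pool anchors of 5, 10 and 25 kb. No lens list had a loop at this position. An ES cell TAD of 80 kb ended at the same places, and a second TAD, of 650 kb, began above the gene, so that the body of Pdgfra lay between 2 TADs. Gsx2 had 4 loops in ES cells and 0 in each lens list.

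The remaining loops of the start of Pdgfra were in 1 or 2 of the 3 lists. In the epithelium a loop of 550 kb ended at Fip1l1 and Lnx1, with 96 contacts and a ratio of 2.53 (2.05 to 3.09). In fibers a loop of 1100 kb ended at the start of Usp46, with 60 contacts and a ratio of 3.04 (2.32 to 3.91), and a loop of 1475 kb ended at Spata18, with 81 contacts and a ratio of 2.72 (2.16 to 3.38). The loop of 1300 kb, to a segment without a protein-coding gene, was in ES cells, with a ratio of 2.61 (1.91 to 3.50), and in the epithelium, with a ratio of 2.78 (2.16 to 3.54). Both lens lists had a loop of 350 kb from just below the gene.

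On the other side, a lens loop ran from 1.79 kb above the gene body past Kit, the gene of a receptor tyrosine kinase related to Pdgfra. It spanned 625 kb in the epithelium, with 120 contacts and a ratio of 3.31 (2.74 to 3.96), and 640 kb in fibers, with 48 contacts and a ratio of 3.55 (2.62 to 4.71). ES cells had a loop of 525 kb from there, with a ratio of 2.05 (1.74 to 2.40). They also had a loop of 640 kb matching that of fibers, with 40 contacts and a ratio of 3.34 (2.39 to 4.55), but its anchor lay 11.8 kb from the gene body and was not counted. The fiber loop therefore has an ES cell counterpart that the 5 kb window leaves out.

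**Figure D3:**
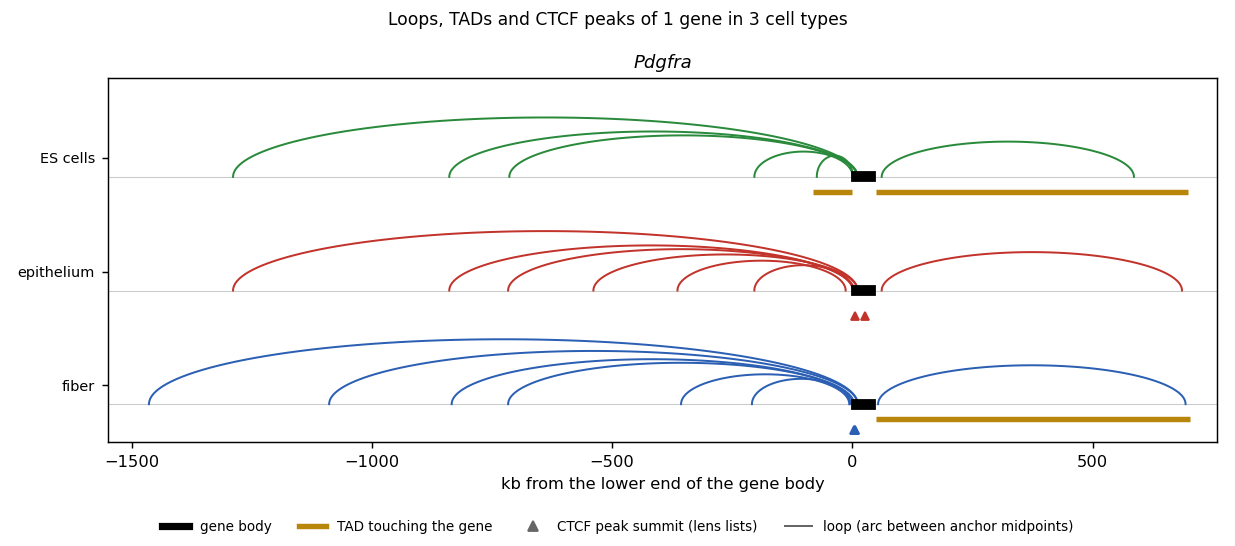
Loops (arcs), TADs (bars) and CTCF summits (triangles, lens lists) at Pdgfra, plotted as kb from the lower end of the gene body, with ES cells, the epithelium and fibers from top to bottom. Arcs of about 205, 720 and 840 kb to the left recur in all 3 rows, and the short 75 kb arc is in the ES cell row.

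CTCF peaks of Pdgfra lay 3.56 to 4.97 kb inside the gene from its listed start in fibers, where there were 3. Of the 2 epithelium peaks, that at 4.96 kb overlapped a fiber peak, and the other, 25.3 kb inside, had a fold enrichment of 3.21, above 0.797% of the list. Of the 14 loops with the start in an anchor, the 5 with 5 kb anchors ended before these peaks and had none at the start anchor. The 9 with wider anchors all took in a peak of both lists. At this gene the count of CTCF-bound anchors therefore goes with anchor width.

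Sema4d codes for a semaphorin that signals through plexin B1. It spans 108 kb of chromosome 13, from 51685529 to 51793678, and had no loop anchor in any list. The nearest anchor was 31.3 kb away in all 3, and no loop of up to 1000 kb enclosed the gene. Its 1 CTCF peak, 14.1 kb from the nearest listed start, was in the epithelium, with a fold enrichment of 5.21. An ES cell TAD of 175 kb held the whole gene, and no TAD of the lens lists touched it.

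The ratio of observed to expected contacts had a median of 2.88 over the 12 loops in ES cells (range 2.05 to 9.83), 2.95 over the 18 in the epithelium (2.39 to 5.66) and 3.39 over the 14 in fibers (2.38 to 7.14). The medians over all loops of the lists were 3.06, 3.05 and 2.83. Loop sizes had medians of 305, 220 and 277.5 kb, beside 220, 250 and 270 kb over all loops. The 75 kb Pdgfra loop of ES cells and the 835 kb Pdgfra loop of fibers, above 98.4% of its list, were toward the top of their lists. Both have 5 kb anchors, while these medians and ranks pool anchors of 5, 10 and 25 kb, whose ratios are not on the same footing. The fiber loop also rests on 21 contacts, with an interval of 4.42 to 10.9.

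**Figure D4:**
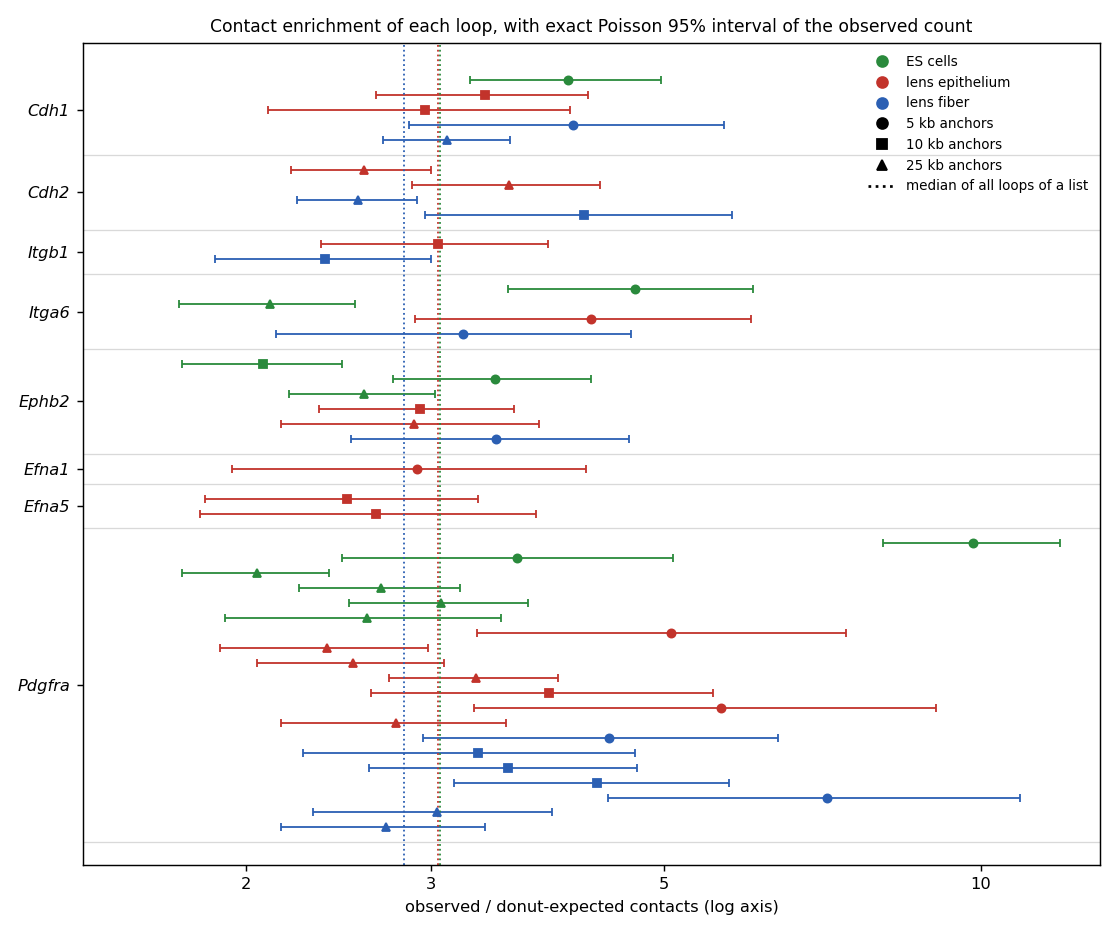
Ratio of observed to donut-expected contacts (log axis) of each of the 44 loops, by gene, colored by list, with the exact Poisson 95% interval of the observed count; marker shape gives anchor width and dotted lines the median of all loops of a list. The ES cell point of Pdgfra at 9.83 stands apart from the others, which lie between 2.05 and 7.14.

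Of the 18 epithelium loops, 10 (55.6%) were shared with fibers, where 55.5% of all epithelium loops were. With ES cells 7 (38.9%) were shared, beside 37.9% of all. Of the 12 ES cell loops, 6 (50%) were in both lens lists, beside 27.5% of all ES cell loops. Of the 14 fiber loops, 10 (71.4%) were shared with the epithelium and 7 (50%) with ES cells, beside 57.8% and 38.1% of all fiber loops. The epithelium shares are near those of the whole list, and the fiber and ES cell shares are above theirs, on counts of 14 and 12 loops and with no test. The 12 ES cell loops come from 4 genes, and 3 of the 6 shared ones belong to Pdgfra.

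CTCF peaks of the same cell type were at both anchors of 5 of 18 epithelium loops (27.8%) and 5 of 14 fiber loops (35.7%). Over all loops the shares were 15.7% in the epithelium and 39.1% in fibers. A peak at 1 anchor was found for 7 and 5 loops, and none for 6 and 4. With the peak list of the other lens cell type, 10 epithelium loops (55.6%) and 3 fiber loops (21.4%) had both anchors bound, beside 38% of all epithelium loops and 16.9% of all fiber loops. The fiber peak list is the longer, with 23868 peaks against 16433, and its part in these counts was not tested.

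At least 1 CTCF peak was in the window of 8 of 10 genes in either lens list, beside 32.9% of all genes in the epithelium and 48.2% in fibers. Of the 4 members of at least 100 kb, 3 had a peak in the epithelium and 3 in fibers, beside 68.4% and 81.4% of all genes of that length. Among 59 other genes of the members' families, listed below, 32 had a peak in the epithelium and 45 in fibers. The 10 genes held 17 peaks in the epithelium and 25 in fibers, of which 12 overlapped in each. The remaining 5 epithelium peaks and 13 fiber peaks overlapped no peak of the other list. Over the whole lists 72.8% of epithelium peaks and 50.1% of fiber peaks overlapped the other.

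**Figure D5:**
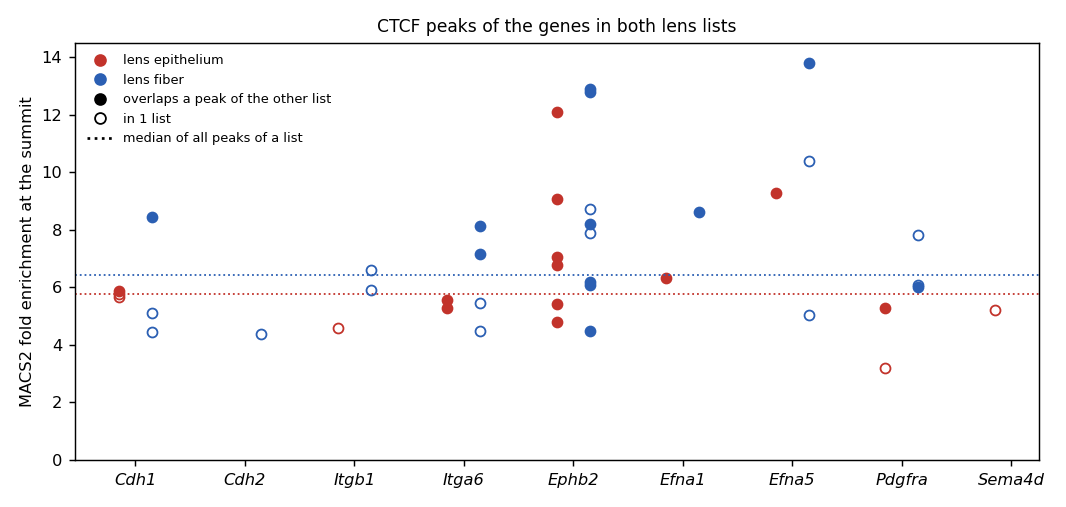
MACS2 fold enrichment of each CTCF peak by gene in the epithelium (red) and fibers (blue), with filled points for peaks that overlap the other list, open points for the rest, and dotted lines for the list medians of 5.78 and 6.44. Peaks above 12 are at Ephb2 and Efna5, and the open points include the fiber peak of Efna5 at 10.4.

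TADs touched 6 members in ES cells, 2 in the epithelium and 6 in fibers, beside 45.5%, 23.9% and 33.1% of all genes. The numbers of TADs were 8, 2 and 6, and 6, 2 and 5 for gene bodies without widening. Pdgfra counts in ES cells and fibers only through its 5 kb flanks, as those TADs hold 0% of its body. The 2 of the epithelium held Epha2 and Efna1 whole, and these genes were also wholly inside a fiber TAD. Ends of a TAD of the same list lay within 10 kb of both anchors for 3 ES cell loops (at Cdh1, Ephb2 and Pdgfra), 0 epithelium loops and 2 fiber loops (at Cdh1 and Pdgfra).

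The families of the members were listed as 69 genes: cadherins and catenins, integrins, Eph receptors, ephrins, PDGF ligands and receptors, and class 4 semaphorins with B plexins. Among the 59 that are not members, 37 had a loop in ES cells (62.7%), 36 in the epithelium (61%) and 38 in fibers (64.4%), with a median gene length of 42.9 kb. With the members included, cadherins and catenins (median length 142 kb) had a loop in 12, 12 and 13 of 16 genes in the same order of lists. Semaphorins and plexins (26.1 kb) had one in 4, 3 and 3 of 9, integrins (76.6 kb) in 10, 11 and 12 of 16, and Eph receptors (92.2 kb) in 7, 7 and 8 of 14. The part of gene length in these counts was not tested.

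Ephrins (median length 9.9 kb, members included) had a loop in 5 of 8 genes in ES cells, 7 in the epithelium and 4 in fibers. The epithelium count includes Efna1 and Efna5 together with Efna3, each without a loop anchor within 5 kb of the gene in the other lists. For Efna1 this depends on the window, since a 50 kb fiber loop had its nearest anchor 9.05 kb away. For Efna3 the window matters too, as the anchor of the 60 kb epithelium loop reached only its 5 kb flank. That loop and the 50 kb fiber loop had both anchor midpoints within 10 kb of each other. Pdgfra had the most loops over the 3 lists of all 69 genes, with 20, followed by Cdh13, Ephb1 and Efnb2 with 10 each, although Cdh13 and Ephb1 are 1185 and 433 kb long. No loop and no peak was listed for Cdh15, Epha2, Pdgfb and Sema4g.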

How the data were processed

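Hi-C data of ES cells and of 2 lens cell types (epithelium and fibers) and CTCF ChIP-seq data of the lens cell types were used. The authors aligned Hi-C reads with BWA and Juicer, merged 2 replicates per cell type, and called loops with HiCCUPS (juicer_tools 2.13.06) and TADs with Arrowhead. Observed contacts of a deposited loop are raw counts, expected contacts come from its donut-shaped surroundings, and its FDR is a q-value. Peaks were called by the authors with MACS2, and each deposited peak has a fold enrichment, a score and −log10 values of its q-value and p-value. The number of ChIP replicates behind a peak list differs between the sources used here. The build is mm10 per the labels, and gene positions and promoters were those of GRCm38.p6 (RefSeq). Features were not placed in exons or introns.

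Overlaps were computed in Python (3.11.15) using pandas (2.3.3), numpy (2.4.6) and scipy (1.17.1), and matplotlib (3.10.9) drew the figures. Gene bodies were widened by 5 kb, loops were shared when both anchor midpoints lay within 10 kb, peaks overlapped by at least 1 bp, and the size of a loop is the distance between anchor midpoints. Genes named at the other anchor of a loop were widened by 5 kb too, so that the anchor may lie in their flank. The computations were tested on simulated data with 2000 loops, and 5 of 5 checks gave the planted answer. Samples were grouped by their labels. Alternatives changed the widening, the shared-loop tolerance, the anchor width, and the FDR, q and TAD size limits.

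The members and gene lists were chosen with earlier results of these data known. The genes named are all members, the genes at the far anchor of loops shared by 2 or more lists or of loops at a member's start, and the family genes with the 3 highest numbers of loops or with no loop and no peak. Zfp90, Hat1, Metap1d, Fam131c, Zbtb40, Wnt4, Kit, Efna3 and Efna4 were chosen after their values were seen.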

Additional observations from a re-analysis of the deposited data

How the results depend on the processing

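Of 46 alternatives to 12 counts, 33 stayed within 1.5 times the reported value. With anchors of 5 or 10 kb only, loops fell to 6 in ES cells and 11 in the epithelium. The stronger 50% of each peak list left 7 peaks in the epithelium and 15 in fibers. TADs holding a whole gene numbered 2 in ES cells and 2 in fibers, and TADs of at least 200 kb numbered 2 in ES cells, 0 in the epithelium and 1 in fibers. When anchors had to overlap, 6 epithelium loops were shared with fibers. With the other peak list, 10 epithelium loops and 3 fiber loops had CTCF at both anchors, and with anchors widened by 5 kb 9 fiber loops did. The fiber peak list at the size of the epithelium list left 18 of its 25 peaks. No paired analysis was possible because the authors merged the replicates of each cell type, and no replicate could be left out for the same reason. The depth of the merged maps limits which loops were called, and a missing loop is not shown to be an absent contact.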

Other observations

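Several neighbors of the members also carried loops. Kit, the receptor gene above Pdgfra, had 0 loops in ES cells, 1 in the epithelium and 1 in fibers, and no CTCF peak in either list. Scfd2, at the far end of Pdgfra loops, had 7 loops in ES cells, 10 in the epithelium and 10 in fibers.

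The ephrin-A genes next to Efna1 had more loops in the epithelium. Efna3 had 0 in ES cells, 2 in the epithelium and 0 in fibers, and Efna4 had 1, 2 and 1. Both had 2 CTCF peaks in fibers, while the epithelium had 0 at Efna3 and 1 at Efna4. These genes share a short segment of chromosome 3 with Efna1, so that 1 loop can count for more than 1 of them. The 60 kb epithelium loop counts for Efna3 only through the 5 kb flank, and the matching 50 kb fiber loop ends outside that flank. Cdh3, the neighbor of Cdh1, had 3, 2 and 2 loops in ES cells, the epithelium and fibers, and 5 and 4 CTCF peaks in the epithelium and fibers.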
